A study of Homo sapiens with 32 samples.

Results

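CCDC150P1 is a pseudogene that lies inside CLIP1, the gene for a microtubule plus-end binding protein, and the 2 genes are described here across 32 RNA-seq libraries of endometrial cancer cell lines. They are 2 of the 35238 genes in the deposited expression table. CCDC150P1 was chosen by its value in these libraries, as the gene with the largest mean rise of SM08502 over vehicle, and CLIP1 was taken because it overlaps it. On the log2(CPM + 1) scale, where CPM is reads per 1000000 counted reads, the 4-line mean difference was 2.65 for CCDC150P1, and the next gene, outside the choice, was AP000580.1 at 2.06, with PYCARD at rank 4 and 1.62. The SM08502 and vehicle values of both genes are therefore given as a description with no test, and tests are kept to libraries or contrasts that the choice did not use.

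The study asked how gene expression and splicing respond when endometrial cancer cells receive paclitaxel, SM08502 or both. Paclitaxel stabilizes microtubules. SM08502 is an inhibitor of CDC-like kinases (CLKs), enzymes that phosphorylate the SR proteins that guide splice-site choice. Ishikawa cells are CTNNB1-wildtype per the labels, while Ishikawa-S33Y, SNGM and HEC265 cells are CTNNB1-mutated. The labels do not say whether Ishikawa-S33Y is a single clone. Vehicle was 0.1% DMSO, exposure lasted 24 h in every group, and the combination used the same 2 concentrations as the single drugs. Ishikawa cells received 11 nM paclitaxel and 80 nM SM08502. Ishikawa-S33Y cells received 6 nM and 85 nM, SNGM cells 11.7 nM and 350.7 nM, and HEC265 cells 5.6 nM and 149 nM. Each of the 16 groups of line and treatment holds 2 libraries from cells plated in duplicate, so p-values measure the spread between these libraries, which may be technical. RNA input was 350 ng for Ishikawa and 500 ng for the other lines. Drug concentration, RNA input and CTNNB1 status therefore cannot be told apart from the line itself. In bulk RNA, fewer cells with a transcript and less of it per cell cannot be told apart either.

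CLIP1 (also known as CLIP-170) binds the growing ends of microtubules, where it helps to recruit dynactin, and it belongs to the plus-end tracking proteins together with the end-binding proteins of the MAPRE family. A pseudogene such as CCDC150P1 is a copy of a parent gene, here the coiled-coil gene CCDC150, that is not held to encode a protein. By RefSeq coordinates on GRCh38.p14, CLIP1 spans chromosome 12 from 122271469 to 122422956 on the minus strand, a length of 151488 bp. CCDC150P1 spans 122322174 to 122323847 on the same chromosome, a length of 1674 bp whose middle lies 99.9 kb downstream of the CLIP1 start. A second pseudogene, RPL21P1, lies within CLIP1 from 122364742 to 122365674. CCDC150 itself is on chromosome 2, from 196639715 to 196732806. The exon or intron of CLIP1 that holds CCDC150P1, its strand and its sequence were not analysed here. The strand and annotation used for counting are not given in the sources used here, so reads of CCDC150P1 and of CLIP1 cannot be told apart with certainty where the genes overlap, and reads could also be shared with CCDC150. CLIP1-AS1, the antisense gene at the locus, was not analysed here.

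With 1 M standing for 1000000 reads, depth was 13.0 to 34.1 M in 30 of the 32 libraries. The other two were both second combination replicates, that of Ishikawa-S33Y with 2.99 M and that of SNGM with 1.61 M, for which 3 reads correspond to 1.00 and 1.87 CPM. The labelled cell type was checked on 7 epithelial markers (EPCAM, KRT8, KRT18, KRT19, CDH1, PAX8 and MUC1), which were all detected in every library and summed to 955.8 to 3495 CPM. The 4 stromal markers summed to 4.241 to 1162 CPM, of which COL1A1 alone reached 1158. The 3 leukocyte markers summed to at most 51.78 CPM, with CD3E at 0 in 18 libraries, and the 2 endothelial markers to at most 4.571 CPM. The widest split within a group was in Ishikawa on paclitaxel: the first replicate had a length score of -0.948, against -2.46 in the second. Ishikawa on SM08502 also split, at -1.68 in the first replicate and -2.42 in the second. CCDC150P1 and CLIP1 were both higher in the first library of that SM08502 pair. That score subtracts the average of 82 ribosomal protein genes from the average of 30 long genes, picked after the data were seen, in log2(CPM + 1). The Ishikawa paclitaxel pair enters some log2 differences in Ishikawa and between Ishikawa and other lines. For CCDC150P1 and CLIP1 these are given with and without each library of the pair.

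Without SM08502, CCDC150P1 was low in every line. On vehicle it stood at 0.925 and 1.15 CPM in the 2 Ishikawa libraries. In Ishikawa-S33Y on vehicle it stood at 1.33 and 1.05 CPM. SNGM had 1.88 and 2.14 CPM on vehicle. HEC265 had 2.63 and 2.86 CPM, the highest vehicle values of the 4 lines. Across the 16 libraries of the vehicle and paclitaxel arms the gene collected 8 to 95 reads, with a median of 51. Both members passed the filter of more than 1 CPM in at least 2 libraries. For CCDC150P1, Ishikawa-S33Y, SNGM and HEC265 each met it on vehicle alone.

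With SM08502 alone, CCDC150P1 stood at 32.1 and 34.6 CPM in Ishikawa-S33Y and at 7.92 and 3.04 CPM in Ishikawa. SNGM had 21.4 and 13.4 CPM, and HEC265 had 19.2 and 21.2 CPM. Every SM08502 library of a line lay above both of its vehicle libraries, and Ishikawa lay below the other 3 lines. As a ratio of mean CPM, SM08502 over vehicle was 5.28 for Ishikawa, 28.04 for Ishikawa-S33Y, 8.64 for SNGM and 7.36 for HEC265. The differences on the log2(CPM + 1) scale were 1.56, 3.97, 2.58 and 2.50 in the same order (SE 0.34 each). From the largest rise among the 17011 genes that passed the filter, these ranked 17, 1, 1 and 3. For all genes in this contrast, averaged over lines, 22.6% were called higher and 15.8% lower at an adjusted p under 0.05. These shares are given as background only, since the contrast chose the gene.

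CLIP1 was detected at 45.1 CPM or more in all libraries, and its SM08502 and vehicle libraries overlapped in 3 of the 4 lines. In Ishikawa it stood at 53.3 and 67.2 CPM on vehicle and at 63.5 and 45.5 CPM with SM08502. Ishikawa-S33Y had 102 and 102 CPM on vehicle and 145 and 142 CPM with SM08502, with no overlap. SNGM had 71.6 and 85.3 CPM on vehicle and 93.4 and 75.1 CPM with SM08502, which overlap. HEC265 had 129 and 124 CPM on vehicle and 127 and 129 CPM with SM08502, which also overlap. The log2 differences of CLIP1 were -0.15, 0.49, 0.10 and 0.02 (SE 0.24 each) in the order Ishikawa, Ishikawa-S33Y, SNGM, HEC265. Their mean was 0.11 (SE 0.12), against 2.65 (SE 0.17) for CCDC150P1. The direction was thus the same for both genes in 3 lines and opposite in Ishikawa, but the size of the CLIP1 difference exceeded its SE in Ishikawa-S33Y only.

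**Figure D1:**
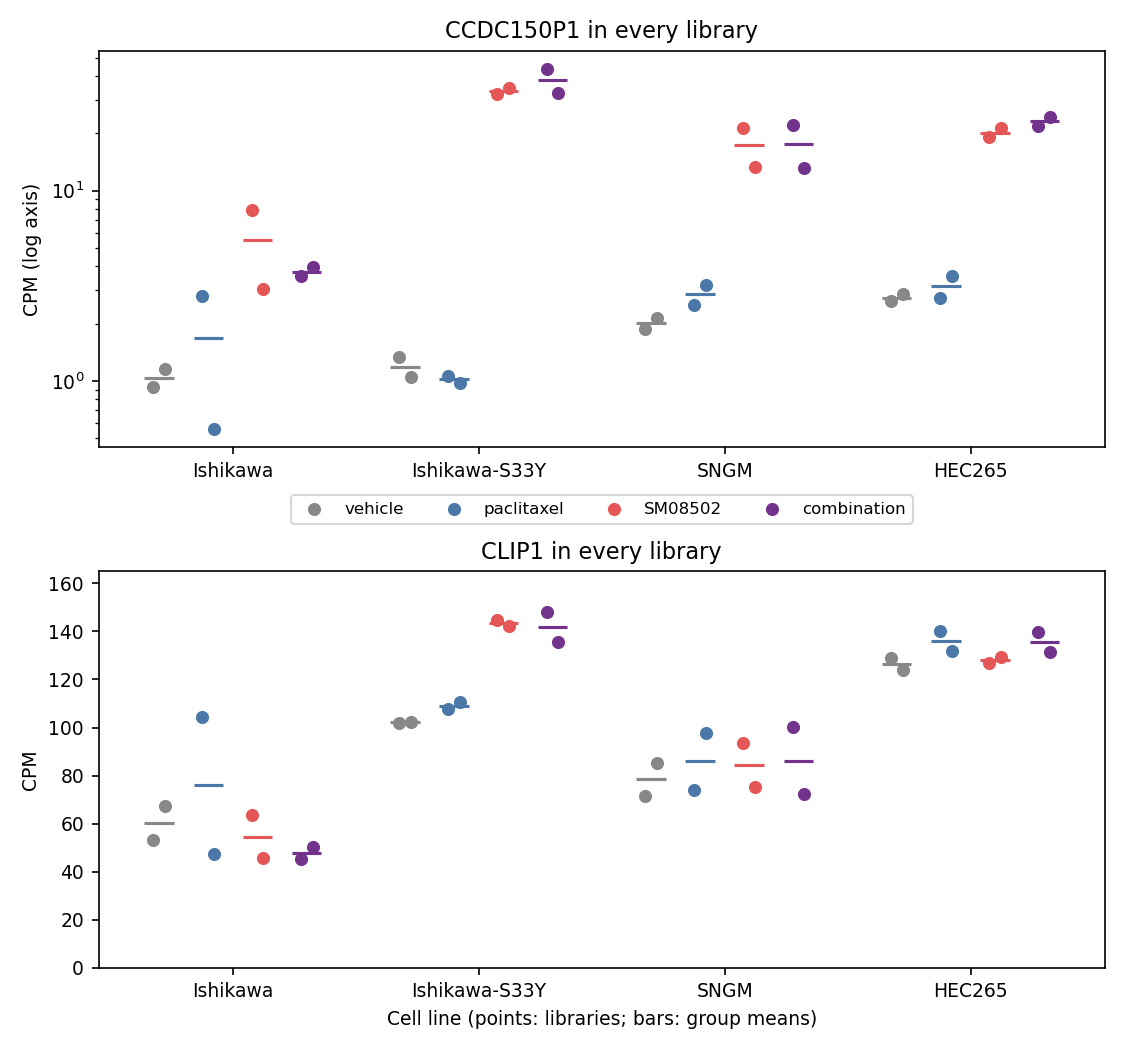
CCDC150P1 (upper panel, CPM on a log axis) and CLIP1 (lower panel, CPM on a linear axis) in each of the 32 libraries, grouped by cell line and coloured by treatment; points are libraries and bars are group means of 2. CCDC150P1 lies between 0.558 and 3.55 CPM without SM08502 and between 3.04 and 43.7 CPM with it, whereas CLIP1 lies between 47.5 and 140.2 CPM without it and between 45.1 and 148 CPM with it. The vehicle and SM08502 libraries shown are those by which CCDC150P1 was chosen.

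The combination and paclitaxel libraries took no part in the choice, and they tested whether CCDC150P1 was higher when SM08502 was added to paclitaxel. On paclitaxel alone, CCDC150P1 stood at 2.79 and 0.558 CPM in Ishikawa. The other lines had 1.07 and 0.980 CPM in Ishikawa-S33Y, 2.51 and 3.19 CPM in SNGM, and 2.73 and 3.55 CPM in HEC265. On the combination it stood at 3.54 and 3.96 CPM in Ishikawa and at 43.7 and 32.4 CPM in Ishikawa-S33Y. SNGM had 22.1 and 13.1 CPM on the combination, and HEC265 had 21.9 and 24.4 CPM. The groups did not overlap in any of the 4 lines, with the narrowest gap in Ishikawa. This describes the values only, since the share of all genes that separate in this way was not counted. Ordered by group mean, CCDC150P1 was highest in Ishikawa-S33Y on the combination (38.1 CPM) and on SM08502 (33.3 CPM), then in HEC265 (23.1 and 20.2 CPM), SNGM (17.6 and 17.4 CPM) and Ishikawa (3.75 and 5.48 CPM). The 8 groups without SM08502 followed at 1.02 to 3.14 CPM. The libraries of both SM08502 arms overlapped in Ishikawa-S33Y, SNGM and Ishikawa and not in HEC265, and those of HEC265 on SM08502 overlapped those of SNGM on the combination.

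CCDC150P1 rose on the combination in Ishikawa-S33Y, SNGM and HEC265. In Ishikawa-S33Y its mean went from 1.02 to 38.1 CPM, a ratio of 37.2, and the log2 difference was 4.26 (95% interval 3.55 to 4.96, limma, Benjamini-Hochberg adjusted p = 1.47e-08). In SNGM the ratio was 6.17 and the log2 difference 2.23 (interval 1.53 to 2.94, limma adjusted p = 1.74e-04). In HEC265 the ratio was 7.38 and the log2 difference 2.55 (interval 1.85 to 3.25, limma adjusted p = 2.65e-05). In Ishikawa the ratio was 2.24 and the log2 difference 0.97 (interval 0.26 to 1.67), which did not pass (limma adjusted p = 0.0598). The mean over the 4 lines was 2.50 (interval 2.15 to 2.85, limma adjusted p = 4.83e-10). Higher or lower calls together made up 14.4% of all genes for Ishikawa, 39.4% for Ishikawa-S33Y, 15.9% for SNGM and 14.9% for HEC265, and for the mean 25.7% were called higher and 19.1% lower. Calls were thus common in this contrast. By size, the rise of CCDC150P1 ranked 1 of 17011 genes in Ishikawa-S33Y, in HEC265 and for the mean, 2 in SNGM and 89 in Ishikawa.

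The Ishikawa value turned on its first paclitaxel library, the one with the higher length score. Without that library the log2 difference was 1.61 (limma adjusted p = 0.00527), and without the second paclitaxel library it was 0.32 (limma adjusted p = 0.524). The second library held 8 reads of CCDC150P1, for which the exact 95% binomial interval is 0.241 to 1.10 CPM. Intervals of this kind cover counting error only. Leaving out the libraries under 5 M gave 4.47 in Ishikawa-S33Y (limma adjusted p = 1.905e-07) and 2.59 in SNGM (limma adjusted p = 4.21e-04). The shallow SNGM combination library held 21 CCDC150P1 reads, with an exact interval of 8.09 to 20.0 CPM, which lies above both SNGM paclitaxel values.

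No CLIP1 difference between the combination and paclitaxel passed the test. In Ishikawa CLIP1 stood at 105 and 47.5 CPM on paclitaxel and at 45.1 and 50.3 CPM on the combination, and the log2 difference was -0.56 (limma adjusted p = 0.121). That value again rested on 1 library: it was 0.00 without the first paclitaxel replicate, which holds the 105 CPM, and -1.12 (limma adjusted p = 4.23e-04) without the second. In Ishikawa-S33Y CLIP1 stood at 108 and 111 CPM on paclitaxel and at 148 and 135 CPM on the combination, with no overlap, and the log2 difference was 0.37 (interval -0.12 to 0.87, limma adjusted p = 0.228). Fitted to the Ishikawa-S33Y libraries alone, this difference passed (limma adjusted p = 0.00132). In SNGM the values were 74.1 and 97.8 CPM against 100.3 and 72.2 CPM, and in HEC265 they were 140.2 and 132 CPM against 139.8 and 131 CPM. Both of these pairs overlap and gave log2 differences of -0.00 (interval -0.49 to 0.49) and -0.01 (interval -0.50 to 0.49). The mean over lines was -0.05 (interval -0.29 to 0.20, limma adjusted p = 0.770).

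**Figure D2:**
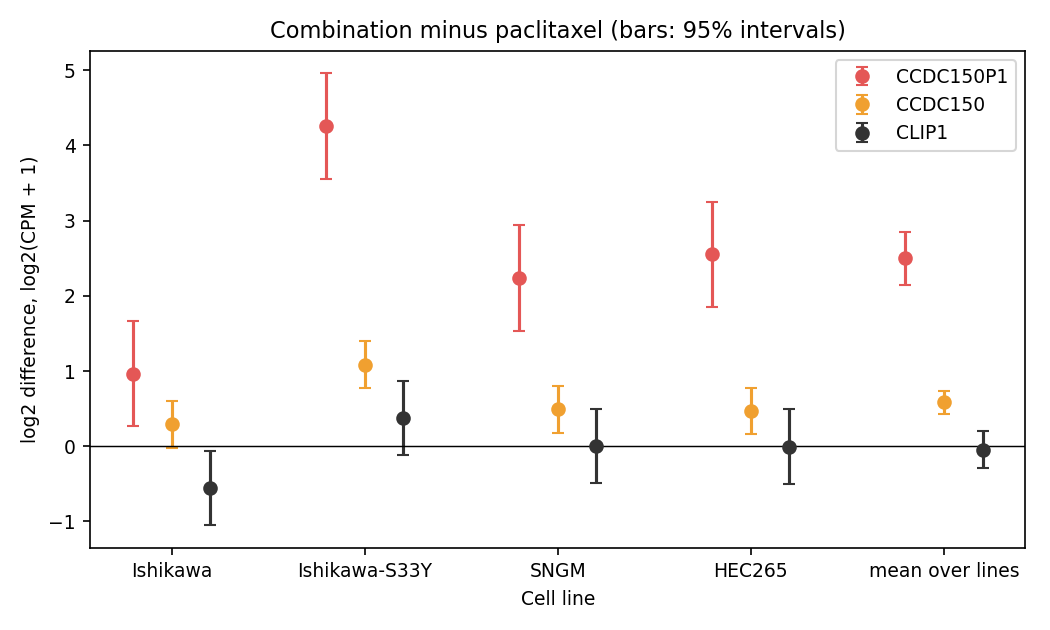
Difference between the combination and paclitaxel on the log2(CPM + 1) scale for CCDC150P1, its parent gene CCDC150 and CLIP1, in each line and as the mean over lines; points are limma estimates from 2 libraries a group and bars are 95% intervals. The CCDC150P1 estimates run from 0.97 in Ishikawa to 4.26 in Ishikawa-S33Y, and the CLIP1 intervals include 0 except in Ishikawa.

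The size of the CCDC150P1 rise differed between lines. The difference between the combination and paclitaxel was larger in Ishikawa-S33Y than in Ishikawa by 3.29 on the log2 scale (interval 2.30 to 4.28, limma adjusted p = 3.19e-04). It was smaller in SNGM than in Ishikawa-S33Y, by -2.02 (limma adjusted p = 0.00522), and smaller in HEC265 than in Ishikawa-S33Y, by -1.71 (limma adjusted p = 0.0221). The last of these lost its call without any 1 of 6 of the 8 libraries behind it, the exceptions being the second Ishikawa-S33Y combination and the first HEC265 paclitaxel library (values -1.78 to -1.496, limma adjusted p up to 0.0905). SNGM and HEC265 exceeded Ishikawa by 1.27 and 1.59, which did not pass (limma adjusted p = 0.142 and 0.0875). These values were 1.91 and 2.23 without the second Ishikawa paclitaxel library, and 0.63 and 0.94 without the first. The value for Ishikawa-S33Y against Ishikawa was 3.93 without the second and 2.65 without the first. HEC265 and SNGM differed by 0.32 (interval -0.68 to 1.31). Of all genes, 9.31% were called for Ishikawa-S33Y against Ishikawa, 3.37% for SNGM against Ishikawa, 2.35% for HEC265 against Ishikawa, 20.2% for SNGM against Ishikawa-S33Y, 12.4% for HEC265 against Ishikawa-S33Y and 3.43% for HEC265 against SNGM. CLIP1 passed in none of these 6 comparisons. Its value for Ishikawa-S33Y against Ishikawa was 0.93 (interval 0.23 to 1.63, limma adjusted p = 0.0840), and was 0.37 without the first Ishikawa paclitaxel library. Without the second it was 1.49. The CLIP1 values for SNGM and HEC265 against Ishikawa were 0.56 and 0.55. They were 1.12 and 1.11 without the second Ishikawa paclitaxel library, and -0.004 and -0.008 without the first.

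Within each library, CCDC150P1 reads were also set against CLIP1 reads, which removes the scaling to library size. Without SM08502 there were 0.885 to 3.39 CCDC150P1 reads per 100 CLIP1 reads in the 16 libraries, and with SM08502 there were 6.68 to 29.5, so the 2 sets did not overlap. Both sets include libraries by which CCDC150P1 was chosen (vehicle and SM08502), so this gap is a description only. On vehicle the ratio was 1.72 ± 0.017 (SD, n = 2) for Ishikawa, 1.16 ± 0.20 for Ishikawa-S33Y, 2.57 ± 0.088 for SNGM and 2.17 ± 0.19 for HEC265. On SM08502 it was 9.58 ± 4.10, 23.2 ± 1.57, 20.4 ± 3.59 and 15.8 ± 0.92 in the same order. Ishikawa-S33Y had the lowest ratio of the 4 lines on vehicle in both libraries. On SM08502 its mean was the highest, but its libraries (22.1 and 24.4) overlapped those of SNGM (22.9 and 17.8). On paclitaxel it was 1.92 ± 1.06, 0.938 ± 0.074, 3.33 ± 0.095 and 2.32 ± 0.53, and on the combination 7.86 ± 0.011, 26.7 ± 3.93, 20.1 ± 2.79 and 17.1 ± 2.01. For the test, 1 was added to each CPM before the log2 ratio of the 2 genes was taken. That ratio therefore still depends on library scaling and understates rises from low values. From paclitaxel to the combination it rose by 1.52 for Ishikawa, 3.88 for Ishikawa-S33Y, 2.23 for SNGM and 2.56 for HEC265. The mean rise of 2.55 had an exact two-sided permutation p = 0.00154 with treatment permuted within lines, the smallest value that the 1296 arrangements allow. In Ishikawa, where CLIP1 and CCDC150P1 were both high in the first paclitaxel library, the ratio there was 2.67 against 1.17 in the second, and both lay below the 2 combination libraries.

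**Figure D3:**
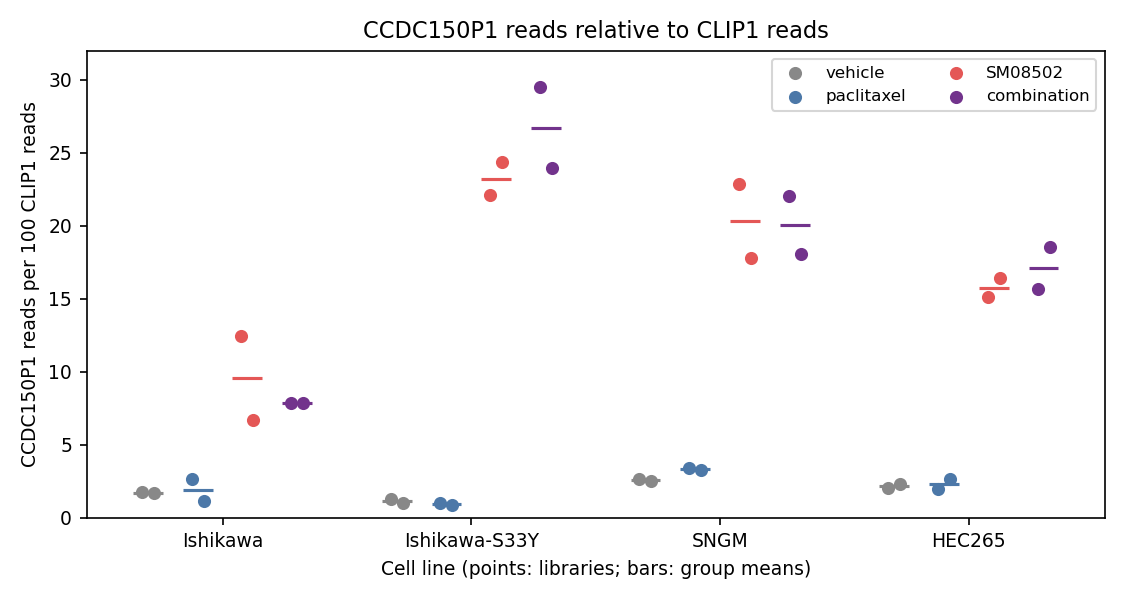
CCDC150P1 reads per 100 CLIP1 reads in each library, by cell line and treatment; points are libraries and bars are group means of 2. All 16 libraries that received SM08502 lie at or above 6.68, and all 16 without it lie at or below 3.39. These include the vehicle and SM08502 libraries by which CCDC150P1 was chosen.

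Neither gene passed the test for paclitaxel against vehicle. CCDC150P1 differed by 0.26 for Ishikawa, -0.11 for Ishikawa-S33Y, 0.35 for SNGM and 0.14 for HEC265, with a mean of 0.16 (interval -0.19 to 0.51, limma adjusted p = 1). CLIP1 differed by 0.23, 0.09, 0.12 and 0.11 in the same order, with a mean of 0.14 (interval -0.11 to 0.39, limma adjusted p = 1). In Ishikawa the CCDC150P1 value was -0.39 without the first paclitaxel library and 0.90 without the second. For CLIP1 these values were -0.33 and 0.80. The contrast of paclitaxel against vehicle shares its vehicle libraries with the one that chose CCDC150P1. Hardly any gene passed in it: 0.0118% in Ishikawa, 0.00% in Ishikawa-S33Y, 0.0176% in SNGM, 0.00588% in HEC265 and 0.00% for the mean. At an unadjusted p under 0.05 limma gave 122 genes in Ishikawa-S33Y and 480 for the mean, and limma voom on recovered reads called 0 in both, with 199 and 820 at an unadjusted p under 0.05.

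Adding paclitaxel to SM08502 moved neither gene past the threshold. Between the combination and SM08502, CCDC150P1 differed by -0.34 for Ishikawa, 0.17 for Ishikawa-S33Y, 0.01 for SNGM and 0.19 for HEC265. Its mean difference was 0.01 (interval -0.34 to 0.36, limma adjusted p = 0.992), and that of CLIP1 was -0.02 (interval -0.27 to 0.23, limma adjusted p = 0.956). The intervals limit an average change of CCDC150P1 to less than 0.36 in either direction on this scale. These comparisons share the SM08502 libraries with the choice. Of all genes, 0.00% were called in Ishikawa, 0.129% in Ishikawa-S33Y, 0.253% in SNGM, 0.00588% in HEC265 and 0.0470% for the mean. In Ishikawa limma gave 308 genes at an unadjusted p under 0.05, and limma voom called 0, with 302 at an unadjusted p under 0.05. Against vehicle, as a description, the combination gave CCDC150P1 differences of 1.22, 4.15, 2.58 and 2.69 in the order Ishikawa, Ishikawa-S33Y, SNGM, HEC265, beside 1.56, 3.97, 2.58 and 2.50 for SM08502 alone.

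The lines differed in their own level of CLIP1. By group mean, CLIP1 was highest in Ishikawa-S33Y with SM08502 (143.5 CPM) and with the combination (142 CPM), followed by the 4 HEC265 groups at 126 to 136 CPM. Next came Ishikawa-S33Y on paclitaxel and vehicle (109 and 102 CPM), the 4 SNGM groups at 78.4 to 86.2 CPM and the 4 Ishikawa groups at 47.7 to 76.1 CPM. Libraries of neighbouring groups overlapped throughout the SNGM and Ishikawa groups. They did not overlap between HEC265 on the combination and on SM08502, or between Ishikawa-S33Y on paclitaxel and on vehicle, and neither of those differences passed the test (0.08 and 0.09, limma adjusted p = 1 for both). On vehicle CLIP1 was higher in Ishikawa-S33Y than in Ishikawa by 0.76 (limma adjusted p = 0.0113), in HEC265 than in Ishikawa by 1.07 (limma adjusted p = 5.08e-04) and in HEC265 than in SNGM by 0.69 (limma adjusted p = 0.0182). SNGM against Ishikawa (0.38), SNGM against Ishikawa-S33Y (-0.38) and HEC265 against Ishikawa-S33Y (0.30) did not pass. The first of the 3 calls was lost without the first Ishikawa library (0.60, limma adjusted p = 0.118) or either Ishikawa-S33Y library (0.76). The third was lost without the first SNGM library (0.56, limma adjusted p = 0.125) or either HEC265 library (0.66 and 0.71). The lines differed in about as large a share of all genes as the 3 of 6 pairs called here: 48.3%, 66.8% and 63.3% of genes were called for Ishikawa-S33Y, SNGM and HEC265 against Ishikawa, 60.8% and 58.0% for SNGM and HEC265 against Ishikawa-S33Y, and 54.9% for HEC265 against SNGM.

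On paclitaxel the same 3 pairs were called for CLIP1: Ishikawa-S33Y above Ishikawa by 0.62 (limma adjusted p = 0.0356), HEC265 above Ishikawa by 0.94 (limma adjusted p = 0.00163) and HEC265 above SNGM by 0.67 (limma adjusted p = 0.0220). Without the second Ishikawa paclitaxel library the first 2 were 0.06 and 0.37 and were lost (limma adjusted p = 0.847 and 0.113). The first was also lost without either Ishikawa-S33Y library (0.60 and 0.64), and HEC265 over SNGM without the first SNGM library (0.47, limma adjusted p = 0.202) or either HEC265 library (0.63 and 0.71). Without the first Ishikawa paclitaxel library, Ishikawa-S33Y and HEC265 exceeded Ishikawa by 1.18 and 1.50. SNGM against Ishikawa was 0.27, at 0.83 without the first Ishikawa library and -0.29 without the second. The background on paclitaxel was 47.6%, 64.1% and 64.8% for Ishikawa-S33Y, SNGM and HEC265 against Ishikawa, 58.4% and 57.7% for SNGM and HEC265 against Ishikawa-S33Y, and 52.7% for HEC265 against SNGM. CCDC150P1 on paclitaxel was higher than in Ishikawa-S33Y by 0.92 in SNGM (limma adjusted p = 0.0233) and by 1.03 in HEC265 (limma adjusted p = 0.0127). The first was lost without either Ishikawa-S33Y library (0.95 and 0.89) or the second SNGM library (0.80, limma adjusted p = 0.123). The other was lost without the second Ishikawa-S33Y library (0.99) or the second HEC265 library (0.88, limma adjusted p = 0.0899). HEC265 against Ishikawa (0.76, limma adjusted p = 0.0540) and SNGM against Ishikawa (0.66, limma adjusted p = 0.0942) did not pass. They were 1.40 and 1.30 without the first Ishikawa library, and 0.12 and 0.016 without the second. Ishikawa-S33Y against Ishikawa was -0.27, at -0.91 without the second Ishikawa library and 0.38 without the first. HEC265 against SNGM was 0.10.

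The parent gene CCDC150 was measured beside its copy, because reads of the 2 could be confused. Without SM08502 it was highest in Ishikawa (7.09 to 10.5 CPM) and lowest in HEC265 (2.31 to 4.01 CPM), an order that CCDC150P1 did not follow. CCDC150 rose on the combination over paclitaxel by 1.09 in Ishikawa-S33Y (limma adjusted p = 8.40e-06), 0.49 in SNGM (limma adjusted p = 0.0286) and 0.47 in HEC265 (limma adjusted p = 0.0349), and its value in Ishikawa was 0.29 (limma adjusted p = 0.204). The mean was 0.58 (interval 0.43 to 0.74, limma adjusted p = 2.15e-06), a ratio of mean CPM of 1.57 against 9.51 for CCDC150P1. With SM08502 alone the line values of CCDC150 were 0.37, 0.96, -0.48 and 0.76 in the order Ishikawa, Ishikawa-S33Y, SNGM, HEC265. In SNGM CCDC150 stood at 5.52 and 6.77 CPM on vehicle and at 4.10 and 4.13 CPM with SM08502, where CCDC150P1 was above 13 CPM in both. The share of CCDC150P1 reads that may belong to CCDC150, or the reverse, was not tested. RPL21P1, the other pseudogene within CLIP1, a copy of a ribosomal protein gene, collected 0 to 6 reads in the libraries without SM08502 and 0 to 3 in those with it. At this depth no change of RPL21P1 was detectable.

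The genes around CLIP1 were called in both directions, in shares near those of all genes. RefSeq places 38 other genes within 500 kb of CLIP1 on either side, of which 25 were in the table and 21 passed the filter. Between the combination and paclitaxel, as the mean over lines, 6 rose (28.6%, beside 25.7% of all genes), 4 fell (19.0%, beside 19.1%) and 11 did not pass, with a median log2 difference of -0.01 against 0.03 over all genes. CCDC62, a coiled-coil protein gene upstream of CLIP1 (-378.1 kb from its start), went from 4.82 to 12.2 CPM (log2 difference 1.23, limma adjusted p = 6.22e-09). VPS33A, a lysosomal tethering subunit gene just downstream of CLIP1, rose by 0.54 (limma adjusted p = 3.88e-08). DIABLO, which encodes a mitochondrial antagonist of inhibitors of apoptosis, rose by 0.53 (limma adjusted p = 1.22e-06). KNTC1, a kinetochore gene, fell by 0.35 (limma adjusted p = 6.21e-05), MLXIP, a glucose-responsive transcription factor gene, fell by 0.41 (limma adjusted p = 0.0123), and DENR, a translation factor gene, fell by 0.20 (limma adjusted p = 0.00556). ZCCHC8, named here for its position as the nearest measured gene upstream, fell by 0.19 (limma adjusted p = 0.0212). For SM08502 over vehicle the counts were 7 higher (33.3%, beside 22.6% of all genes), 3 lower (14.3%, beside 15.8%) and 11 not called, with a median of 0.04 against 0.05 over all genes.

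**Figure D4:**
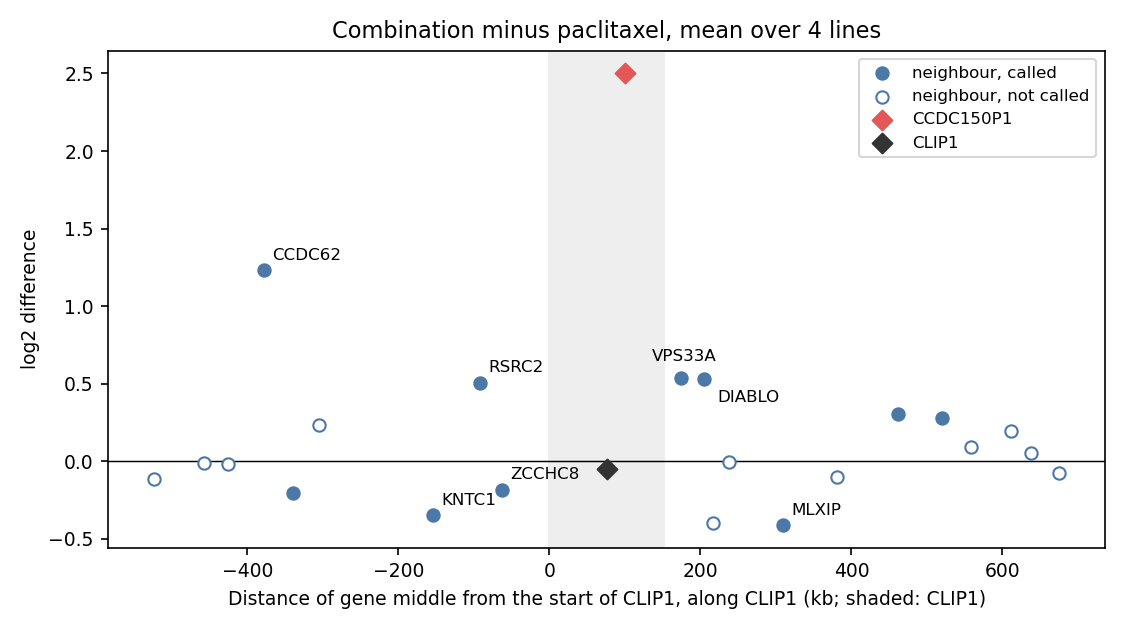
Mean log2 difference between the combination and paclitaxel for CCDC150P1, CLIP1 and the 21 neighbouring genes that passed the filter, against distance in kb from the start of CLIP1 along its direction of transcription; the shaded band is CLIP1, filled points were called and open points were not. CCDC150P1 stands at 2.50, the highest neighbour, CCDC62, at 1.23, and CLIP1 at -0.05.

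CLIP1 works with other plus-end proteins, and 29 of their genes were examined as a list; all 29 passed the filter. Between the combination and paclitaxel 5 rose, 5 fell and 19 did not pass, with a median of 0.01 against 0.03 over all genes. The shares called were 17.2% each way, beside 25.7% higher and 19.1% lower over all genes. SLAIN1, which binds end-binding proteins and promotes microtubule growth, rose by 0.49 (limma adjusted p = 4.38e-04). NDE1, a regulator of dynein, rose by 0.32 (limma adjusted p = 0.01004), and MAPRE2, an end-binding protein gene, rose by 0.30 (limma adjusted p = 0.00118). DCTN1, which encodes the dynactin subunit that CLIP1 binds, fell from 75.7 to 45.3 CPM, by 0.76 on the log2 scale (limma adjusted p = 5.99e-04). NAV2, a neuron navigator gene, fell by 0.72 (limma adjusted p = 9.38e-04), and CLIP4, a relative of CLIP1, fell by 0.49 (limma adjusted p = 1.97e-05). For SM08502 over vehicle 6 were higher (20.7%, beside 22.6% of all genes) and 4 lower (13.8%, beside 15.8%), with a median of 0.08 against 0.05 over all genes.

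CCDC150P1 was set beside the other pseudogenes that lie inside protein-coding genes. The table holds 1740 that RefSeq places wholly within a protein-coding gene, CCDC150P1 left out, and 192 of them passed the filter. Between the combination and paclitaxel 54 rose (28.1%, beside 25.7% of all genes), 9 fell (4.69%, beside 19.1%) and 129 did not pass, with a median of 0.12 against 0.03 over all genes. These shares were not matched on expression level. Low genes can also meet the filter through the shallow combination libraries, where few reads exceed 1 CPM. With a stricter filter (mean log2(CPM + 1) of at least 2, 12118 genes) 13 nested pseudogenes were called in either direction, against 63. How many nested pseudogenes passed that filter is not given here, nor is the share of all genes called under it. The counts 13 and 63 therefore cannot be compared as shares. Of the 192, a log2 difference of at least 1 was reached by 3. TPM3P9, within ZNF765-ZNF761, rose from 12.9 to 31.0 CPM (1.17, limma adjusted p = 9.67e-11). ANKRD18EP, within SAYSD1, rose by 1.13 (limma adjusted p = 6.98e-08), and PRPS1P2, within the phosphatase gene PPP6C, rose by 1.12 from 2.33 to 6.38 CPM (limma adjusted p = 7.37e-09). GCSHP5, within DCAF6, fell by 0.80 (limma adjusted p = 3.97e-05). MTCO3P12 and MTND4P12 fell by 0.74 and 0.70 (limma adjusted p = 0.0467 and 0.0214), but they are copies of abundant mitochondrial genes whose reads they could share, and their counts are uncertain. For SM08502 over vehicle 41 were higher (21.35%, beside 22.6% of all genes), 6 lower (3.125%, beside 15.8%) and 145 not called. The median was 0.08 against 0.05 over all genes. The largest differences in that contrast were ANKRD18EP (1.07), TPM3P9 (0.93), FCF1P2 within NME6 (0.85), CPSF1P1 within SLC5A4 (0.78) and PRPS1P2 (0.76), beside 2.65 for CCDC150P1. None of the 192 reached the value of CCDC150P1 between the combination and paclitaxel.

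**Figure D5:**
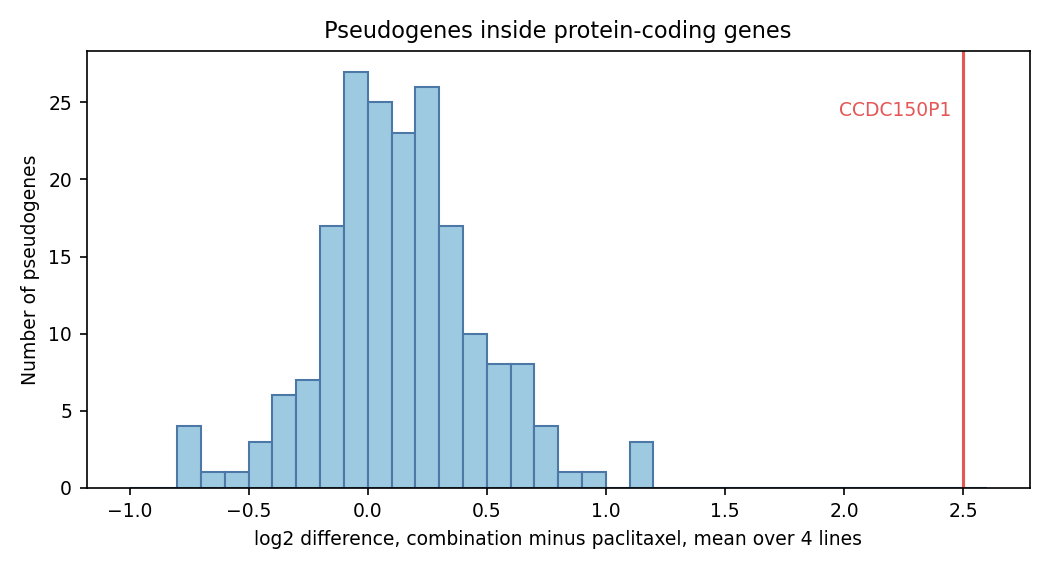
Number of pseudogenes within protein-coding genes (192 that passed the filter) by their mean log2 difference between the combination and paclitaxel, with CCDC150P1 marked as a line. The listed pseudogenes run from -0.80 to 1.17 and CCDC150P1 stands at 2.50.

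The genes most like each member in level were found by Pearson's r of log2(CPM + 1) over the 16 group means, among 14408 genes. For CCDC150P1 they were ZNF720 (0.96), the centriole gene CENPJ (0.95), CALML4 (0.93), the ribosomal protein gene RPL22 (0.93) and C15orf40 (0.93). Their own SM08502 differences ran from 0.46 for ZNF720 to 1.49 for CALML4. For CLIP1 those reported were SPEN (0.98), ZNF142 (0.98), the corepressor gene BCOR (0.97) and ANKRD11 (0.97), whose SM08502 differences lay between 0.05 and 0.31. No gene was in both sets, and r between CCDC150P1 and CLIP1 was 0.47. SPEN is also among the 30 long genes of the length score. The 16 points share lines, libraries and depth, so these values describe the groups and carry no p.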

How the data were processed

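The authors deposited log10(CPM + 1) per gene; per the submitters' processing notes bcl2fastq, kallisto and STAR were used with GRCh38, and the counter, annotation and strand are not given in the sources used here. Deposited CPM, back-transformed from log10, sum to 1000000 per library and are whole multiples of 1 read for 100% of values, which gave the depths. The tolerance was 0.01 reads for low counts and grew with the count for high ones, where the check is weaker. The design had assumed log2 CPM, so values were tested as log2(CPM + 1), which understates the change of low genes. Genes with CPM above 1 in at least 2 libraries (17011) were fitted with limma 3.58.1 (R 4.3.3), 1 mean per group over 32 libraries, with an intensity trend (16 residual and 4.90 prior degrees of freedom). P-values were two-sided and adjusted over all 17011 genes by the Benjamini-Hochberg method, with a call at an adjusted p under 0.05, in each of 43 contrasts. The procedure was tested on simulated data. Of the table's symbols, 25923 were found among RefSeq genes (GRCh38.p14); since that table has no strand column, the planned split of nested pseudogenes by strand was not run. Named genes were both members, CCDC150, the 5 most alike genes per member, the 3 largest called rises and falls of each list in the combination over paclitaxel, and the 5 largest nested pseudogenes for SM08502. Results for 1 gene that met this rule are not reported here. The members and lists were chosen with earlier results of these data known. Splicing tables were not used here. Alternatives were another pseudocount, filter, scaling, variance model, set of libraries, limma voom and a replicate block.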

Additional observations from a re-analysis of the deposited data

Results flagged for a closer look

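The difference of CCDC150P1 between the combination and paclitaxel was not the same in all lines by a direct test. On the log2(CPM + 1) scale it was 3.29 larger in Ishikawa-S33Y than in Ishikawa (limma adjusted p = 3.19e-04). It was -2.02 in SNGM relative to Ishikawa-S33Y (limma adjusted p = 0.00522) and -1.71 in HEC265 relative to Ishikawa-S33Y (limma adjusted p = 0.0221). The last call was lost without any 1 of 6 of the 8 libraries behind it (limma adjusted p from 0.0518 to 0.0905) and with no filter (limma adjusted p = 0.0502). All 3 results involve Ishikawa-S33Y, whose combination libraries held 43.7 and 32.4 CPM, the second of them at 2.99 M (1 M is 1000000) reads. Over the alternatives these differences ran from 2.65 to 3.93, from -2.53 to -1.67 and from -2.55 to -1.496. The concentration of SM08502 differed between the lines and cannot be told apart from them.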

How the results depend on the processing

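Over 69 results and 1042 alternatives, 974 concerned tested differences, of which 849 kept their direction and side of the threshold, 63 reversed, 34 became called and 28 lost the call. The other 68 concerned counts of called genes, of which 63 stayed within 1.5 times, 2 rose past it and 3 fell past it. Leaving out single libraries uses a lone library in 1 group, assumed to vary like the others. The cause of each change below was not tested.

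CCDC150P1, combination against paclitaxel in Ishikawa (0.97), passed with a pseudocount of 0.1 (1.48, limma adjusted p = 0.0469), median re-centring (1.02), quantile normalization (0.97) and without the libraries under 5 M reads (0.97). On paclitaxel, SNGM against Ishikawa passed with a pseudocount of 0.1 (1.09), re-centring (0.79) and quantile normalization (1.16); HEC265 against Ishikawa passed with these (1.22, 0.91 and 1.62) and without the shallow libraries (0.76). With no filter, SNGM against Ishikawa-S33Y on paclitaxel (0.92) and HEC265 against Ishikawa-S33Y in combination against paclitaxel (-1.71) were lost (limma adjusted p = 0.0525 and 0.0502). Without the shallow libraries HEC265 against Ishikawa in that contrast passed (1.59) and HEC265 against SNGM was -0.04 (-0.14 with quantile normalization). Combination against SM08502 reversed in SNGM (-0.015 re-centred, -0.023 quantile) and for the mean (-0.002 with a pseudocount of 0.1, -0.013 quantile).

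CLIP1, combination against paclitaxel, passed in Ishikawa-S33Y fitted alone (0.37). It was 0.001 re-centred, 0.13 by limma voom and 0.23 without shallow libraries in SNGM, 0.016 with quantile normalization in HEC265, and for the mean 0.027 without shallow libraries and 0.12 over the 3 lines other than Ishikawa, an alternative added after seeing the data. Combination against SM08502 was 0.026 re-centred and 0.044 without shallow libraries in Ishikawa-S33Y, -0.005 with quantile normalization in SNGM, and 0.012 by limma voom and 0.052 without shallow libraries for the mean. Ishikawa-S33Y against Ishikawa on paclitaxel (0.62) was lost with no filter and with these lines alone. HEC265 against Ishikawa-S33Y passed re-centred and with these lines alone on paclitaxel (0.46 and 0.31) and vehicle (0.49 and 0.30), and SNGM against Ishikawa on vehicle passed re-centred (0.52). In combination against paclitaxel, Ishikawa-S33Y against Ishikawa passed re-centred (0.88) and with quantile normalization (0.99), HEC265 against Ishikawa-S33Y with these lines alone (-0.38), and HEC265 against SNGM was 0.033 with quantile normalization.

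Genes called in combination against paclitaxel numbered 13 in Ishikawa, 232 in SNGM and 7258 in HEC265 when each line was fitted alone, against 2457, 2700 and 2538. Called nested pseudogenes numbered 114 with no filter and 13 with the stricter one, against 63. The number tested changes with the filter and is not given for these alternatives, so the counts are not shares.

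Whether the replicate numbers pair libraries was not settled, since correlations of same-numbered deviations were mixed. They ran from -0.33 to 0.70 in Ishikawa, -0.05 to 0.03 in Ishikawa-S33Y, -0.45 to 0.43 in SNGM and -0.06 to 0.08 in HEC265. With the replicate block, 2 CCDC150P1 results passed, combination against paclitaxel in Ishikawa (0.97, limma adjusted p = 0.0440) and HEC265 against Ishikawa on paclitaxel (0.76, limma adjusted p = 0.0385), and no other call of either gene changed.

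Leaving out 1 library at a time changed the call or direction of the following, given as lowest to highest. CCDC150P1 in combination against paclitaxel ran for Ishikawa from 0.32 to 1.61. CCDC150P1 in paclitaxel against vehicle ran for Ishikawa from -0.39 to 0.90, HEC265 from -0.005 to 0.28, mean over lines from -0.002 to 0.32. CCDC150P1 in combination against SM08502 ran for Ishikawa from -0.91 to 0.23, Ishikawa-S33Y from -0.038 to 0.38, SNGM from -0.35 to 0.36, mean over lines from -0.14 to 0.15. CCDC150P1 on paclitaxel between lines ran for Ishikawa-S33Y against Ishikawa from -0.91 to 0.38, SNGM against Ishikawa from 0.016 to 1.30, HEC265 against Ishikawa from 0.12 to 1.40, SNGM against Ishikawa-S33Y from 0.80 to 1.05, HEC265 against Ishikawa-S33Y from 0.88 to 1.17, HEC265 against SNGM from -0.042 to 0.25. CCDC150P1 in combination against paclitaxel between lines ran for SNGM against Ishikawa from 0.63 to 1.91, HEC265 against Ishikawa from 0.94 to 2.23, HEC265 against Ishikawa-S33Y from -1.91 to -1.496, HEC265 against SNGM from -0.040 to 0.68. CLIP1 in combination against paclitaxel ran for Ishikawa from -1.12 to 0.003, SNGM from -0.23 to 0.23, HEC265 from -0.049 to 0.040, mean over lines from -0.19 to 0.092. CLIP1 in paclitaxel against vehicle ran for Ishikawa from -0.33 to 0.80, SNGM from -0.076 to 0.32, mean over lines from -0.001 to 0.28. CLIP1 in combination against SM08502 ran for Ishikawa from -0.41 to 0.064, Ishikawa-S33Y from -0.083 to 0.044, SNGM from -0.21 to 0.26, mean over lines from -0.081 to 0.037. CLIP1 on paclitaxel between lines ran for Ishikawa-S33Y against Ishikawa from 0.061 to 1.18, SNGM against Ishikawa from -0.29 to 0.83, HEC265 against Ishikawa from 0.38 to 1.50, HEC265 against SNGM from 0.47 to 0.87. CLIP1 on vehicle between lines ran for Ishikawa-S33Y against Ishikawa from 0.60 to 0.93, HEC265 against SNGM from 0.56 to 0.81. CLIP1 in combination against paclitaxel between lines ran for Ishikawa-S33Y against Ishikawa from 0.37 to 1.49, SNGM against Ishikawa from -0.004 to 1.12, HEC265 against Ishikawa from -0.008 to 1.11, HEC265 against SNGM from -0.24 to 0.23.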
